A study of Mus musculus with 4 samples.

Results

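Connexins and pannexins were described in neurospheres with a mutated Dll1 gene, which encodes a Notch ligand. The genes were Gja1, Gjb1, Gjb2, Gjb6, Gjc1 (called Gja7 in the array files), Panx1 and Panx2, and they were taken by name. The set was chosen on the ratios of Gjc1, which was higher in one mutant line and lower in the other, so the mutant over wild-type ratios of these genes are given as a description with no test. Of these 7 genes, 6 had probes on the array, 10 probes in all. Panx2 was not analysed here. A filter on dim probes kept 8 of the 10 probes, with at least 1 for each of the 6 genes, among 34447 of 41174 probes in the series, which stood for 23107 genes.

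Neurospheres are free-floating cultures grown from neural stem cells, here in serum-free medium with EGF. RNA of the mutant lines Dll1-3 and Dll1-5 was compared with wild-type RNA on 4 arrays of 2 colours, and mutant and wild-type mice alike came from a 129/Sv strain crossed with C57BL/6. The dyes were exchanged between the 2 arrays of a line: mutant RNA was in Cy5 on array 1 and in Cy3 on array 2. RNA of 3 preparations was pooled, so each line counted as 1 replicate, and whether its arrays held separate pools is not settled by the labels. The kind of Dll1 mutation and the age of the mice are not given in the sources used here.

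Connexins are membrane proteins that assemble into hexameric hemichannels. Hemichannels of neighbouring cells dock to form gap junctions, through which ions, second messengers and small metabolites pass. Neural progenitors and astrocytes are coupled in this way, mainly by the Gja1 product, connexin-43. Pannexins have a similar membrane topology but act mostly as channels to the outside, and the Panx1 channel is known for the release of ATP.

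Ratios are given on the log2 scale, mutant over wild type, so 1 unit is a 2-fold difference. The ± beside a line mean is how far each of its 2 arrays lay from it, a spread that may be technical. Levels are log2 intensities of each channel after normalisation, and they can be compared between channels for a probe but not between probes. Dll1 itself was at -3.31 and -3.22 on the Dll1-3 arrays and at -1.65 and -1.64 on the Dll1-5 arrays. The share of probes well above background was 80% to 82.1% in every channel. With limma on the line means, 0 of 23106 genes (0%) passed an adjusted p of 0.05, although 2763 were higher and 3582 lower at an unadjusted p of 0.05. Genes that are no members are therefore given below with their values as well as their p.

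The 250 bases before the annotated start of Gja1 and of Panx1, the members that were lower on all 4 arrays by at least 2-fold, are shown because they are the sequence next to the start of those transcripts. They are RefSeq sequences of build GRCm38.p6, written 5′ to 3′ on the strand of the gene. Capitals mark matches, on either strand, to 3 motifs: TGGGAA, the core of the site of RBPJ, the DNA-binding factor of Notch signalling; TGANTCA, the AP-1 site; and GGGCGG, the GC box bound by Sp1. No match marked here overlaps another.
Gja1, chr10:56377050-56377299, plus strand: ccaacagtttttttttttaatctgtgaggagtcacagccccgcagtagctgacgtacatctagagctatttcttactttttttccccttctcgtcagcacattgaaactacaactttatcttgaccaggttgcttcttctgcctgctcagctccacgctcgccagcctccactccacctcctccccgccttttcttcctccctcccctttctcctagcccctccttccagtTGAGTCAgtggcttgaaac
Panx1, chr9:15045479-15045728, minus strand: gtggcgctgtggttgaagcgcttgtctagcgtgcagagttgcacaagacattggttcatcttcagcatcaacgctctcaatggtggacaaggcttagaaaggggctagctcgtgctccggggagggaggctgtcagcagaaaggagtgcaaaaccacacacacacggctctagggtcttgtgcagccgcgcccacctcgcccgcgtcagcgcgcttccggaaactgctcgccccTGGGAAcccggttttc
The Gja1 window held 1 AP-1 match, and the Panx1 window 1 RBPJ core match. Over 32851 windows of this length in the RefSeq table, 6.75% held an AP-1 match, 21.6% an RBPJ core match and 32.7% a GC box match. A match is a description of the letters only. Sequences in the table matched 5 of the 6 measured members by symbol. The Gjb2 window, at 69.2% G and C, held 2 GC box matches, and the Gjb6 window none of the 3 motifs. Gjb1 had 4 windows, of which 1 held 3 GC box matches and the others no match.

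**Figure D1:**
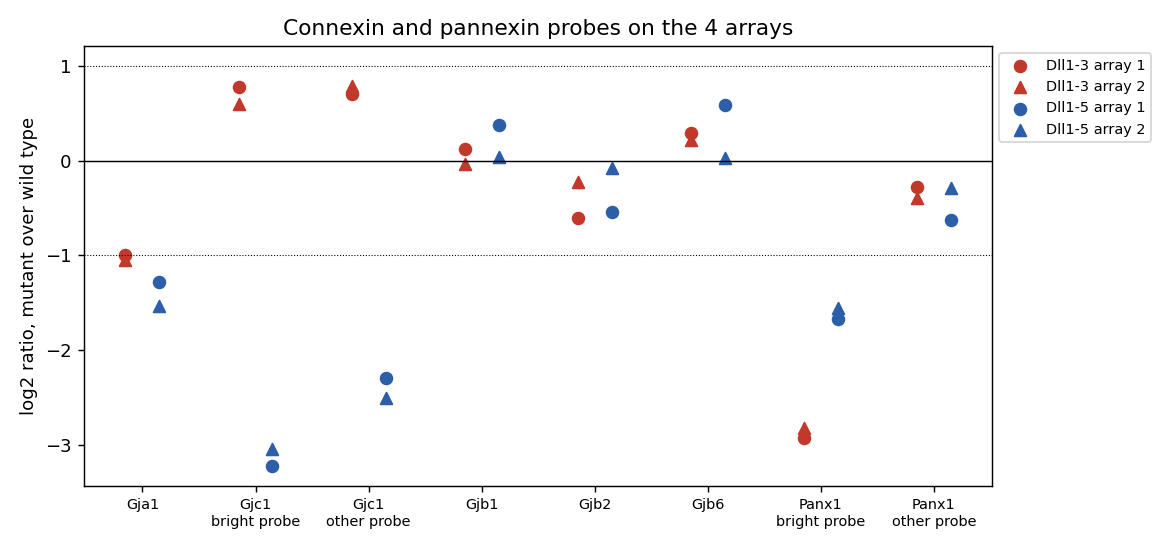
Log2 ratio of mutant over wild type (y axis) on each of the 4 arrays for the 8 kept probes (x axis); circles are array 1 and triangles array 2 of a line, and dotted lines mark a 2-fold difference. Both Gjc1 probes lie above 0 in Dll1-3 and below -2 in Dll1-5, Gja1 and the bright Panx1 probe lie at or below -1 on all 4 arrays, and Gjb1, Gjb2 and Gjb6 lie between -0.60 and 0.59.

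Gja1 encodes connexin-43, the main gap junction protein of astrocytes and neural progenitors. It was at -1.0 and -1.05 on the Dll1-3 arrays and at -1.28 and -1.53 on the Dll1-5 arrays. The line means were -1.03 ± 0.02 in Dll1-3 and -1.40 ± 0.13 in Dll1-5, which is 2.04-fold and 2.65-fold lower than wild type. By channel, its level was 9.33 and 9.58 in Dll1-3 RNA, 9.11 and 9.03 in Dll1-5 RNA, and 10.48 ± 0.14 (SD, n = 4 arrays) in wild-type RNA. Every mutant channel was below every wild-type channel, whose lowest value was 10.33. The probe, the only one for the gene, lies on chromosome 10 from 56639821 to 56639880 in the coordinates of the array files, which name no genome build. As a share of all genes, 6.1% were at least 2-fold lower on both Dll1-3 arrays and 3.69% on both Dll1-5 arrays. The Dll1-3 value sat close to that limit: without background subtraction its arrays were at -0.97 and -1.03.

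Panx1, the ATP release channel, had the lowest ratio of the set in Dll1-3. Its brighter probe was at -2.93 and -2.82 on the Dll1-3 arrays and at -1.67 and -1.56 on the Dll1-5 arrays. That made Panx1 7.34-fold lower in Dll1-3 (-2.88 ± 0.06) and 3.07-fold lower in Dll1-5 (-1.62 ± 0.06). Levels were 7.96 and 8.08 in Dll1-3 RNA, 9.33 and 9.29 in Dll1-5 RNA, and 10.91 ± 0.07 (SD, n = 4 arrays) in wild-type RNA. The 3 groups of channels did not overlap, and the lines were 1.26 apart. A second Panx1 probe gave much smaller ratios, -0.34 ± 0.05 in Dll1-3 and -0.46 ± 0.17 in Dll1-5. It was a dim probe, and mutant RNA was well above background on only 1 array of each line. On chromosome 9 the brighter probe covers 14840030 to 14840089, and the dimmer, 2109 bases away, 14842139 to 14842198. With the mean of both probes, Panx1 was at -1.61 in Dll1-3 and -1.04 in Dll1-5. Only 1 of the Dll1-5 arrays, at -1.15, was then 2-fold lower.

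Gjc1 encodes connexin-45, a connexin of the embryonic heart, of smooth muscle and of some neurons. It went in opposite directions in the lines, which is why the set was chosen. Its brighter probe was at 0.78 and 0.60 on the Dll1-3 arrays and at -3.22 and -3.04 on the Dll1-5 arrays. Relative to wild type, Gjc1 was 1.61-fold higher in Dll1-3 (0.69 ± 0.09) and 8.76-fold lower in Dll1-5 (-3.13 ± 0.09).

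The other Gjc1 probe, 186 bases away and not overlapping it, had the same signs on all 4 arrays. It was at 0.70 and 0.79 in Dll1-3 and at -2.29 and -2.50 in Dll1-5. These probes share the RNA and the arrays, so they are repeat readings and not replicates. They lie on chromosome 11, from 102620829 to 102620888 and from 102621015 to 102621074.

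By channel, the level of the brighter Gjc1 probe was 10.67 and 10.66 in Dll1-3 RNA and 6.50 and 6.99 in Dll1-5 RNA. Wild-type RNA had 9.89 and 10.06 on the arrays shared with Dll1-3, and 9.72 and 10.04 on those shared with Dll1-5. Wild-type levels thus ran from 9.72 to 10.06, and the Dll1-3 and Dll1-5 channels lay above and below that range with no overlap. Dll1-5 RNA was still well above background on both arrays. The scanner software's background-corrected, dye-corrected signals were 11400 and 10900 in Dll1-3, 310 and 307 in Dll1-5, and 6360, 6890, 5760 and 6520 in wild type.

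**Figure D2:**
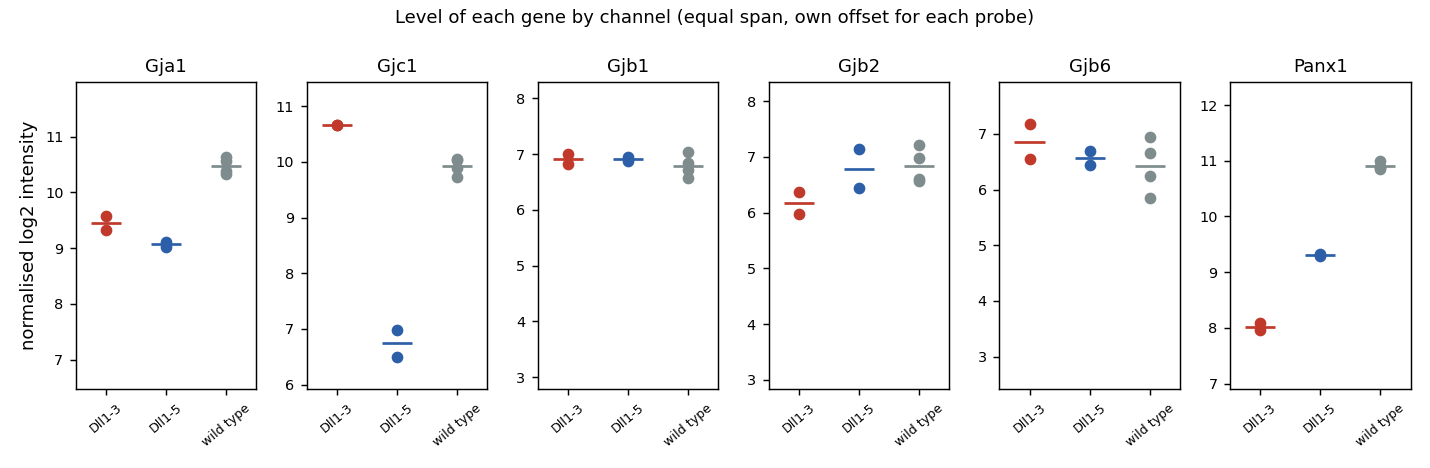
Normalised log2 intensity (y axis, of equal span in each panel) of the brightest probe of each gene in Dll1-3, Dll1-5 and wild-type channels; points are arrays (n = 2, 2 and 4) and bars are means. Gjc1 lies above wild type in Dll1-3 and far below it in Dll1-5, while Gja1 and Panx1 lie below wild type in both lines.

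For Gjc1, Dll1-5 minus Dll1-3 was -3.82, and 4 of 23106 genes, Gjc1 included, had a difference as low or lower. Opposite signs in the lines, on both arrays of each, were found for 10% of genes, and of the 6 members for Gjc1 alone. A distance of at least 2-fold between lines with no overlap of their arrays was found for 4.42% of genes, and among members for Gjc1 and Panx1. These comparisons share wild-type RNA that may have been the same, and they are the values from which the set was chosen, so nothing is read from the shares. Under median centring in place of loess, the Dll1-3 arrays of Gjc1 split to 1.84 and 0.02 and the Dll1-5 arrays to -2.68 and -3.62, with unchanged signs.

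**Figure D3:**
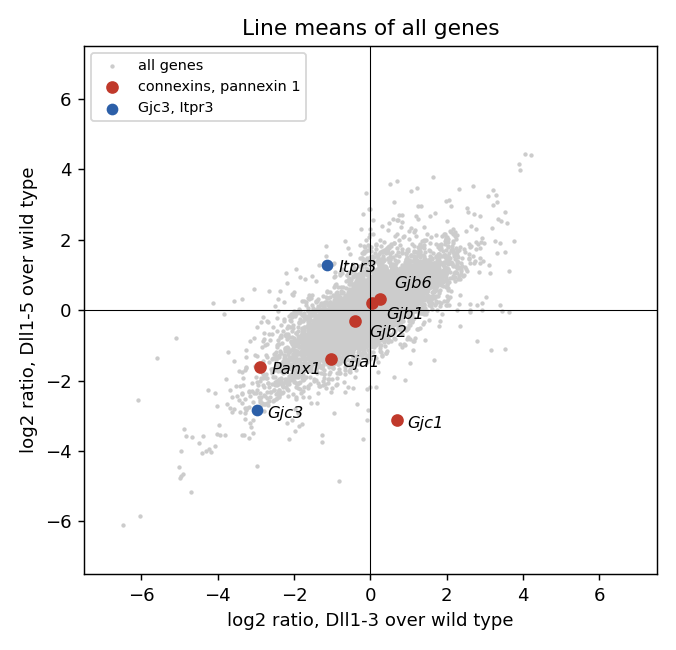
Mean log2 ratio over wild type in Dll1-5 (y axis) against Dll1-3 (x axis) for all genes (grey), the 6 measured members (red) and Gjc3 and Itpr3 (blue). Gjc1 stands at 0.69 in Dll1-3 and -3.13 in Dll1-5, away from most genes, and Itpr3 stands on the other side.

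The genes nearest to Gjc1 over the 4 array ratios were Crlf2, Coro7, Klhl22, H2-K1 and Gsdme, at Euclidean distances of 1.1, 1.23, 1.45, 1.63 and 1.69. They were sought among 14646 named genes above background in every channel, of which 1% lay within 3.27. In Dll1-5 they were at -3.12, -2.83, -3.67, -2.67 and -1.97. In Dll1-3 only Gsdme, a pore-forming gasdermin, was clearly above 0, at 0.92 ± 0.06. Crlf2 was at -0.08, Coro7 at -0.07, Klhl22 at -0.18 and H2-K1 at -0.36. Other kept probes of Coro7, Klhl22, H2-K1 and Gsdme lay between -0.45 and 0.06 in Dll1-5 and between -0.03 and 0.22 in Dll1-3, so none had the low Dll1-5 value of the probe used.

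Genes at least 1.5-fold higher on both Dll1-3 arrays and at least 2-fold lower on both Dll1-5 arrays numbered 4 of 22914, Gjc1, Gsdme, Ntpcr and Unc13b, a limit chosen after the values were seen. Unc13b, a synaptic vesicle priming gene, was at 1.66 ± 0.06 in Dll1-3 against -1.42 ± 0.16 in Dll1-5, and Ntpcr, a nucleoside triphosphatase, at 1.04 ± 0.07 in Dll1-3 against -1.50 ± 0.10 in Dll1-5. The other 3 probes of Unc13b were at 0.06, 0.30 and 0.68 in Dll1-3 and at 0.03, 0.09 and -0.11 in Dll1-5. The other Ntpcr probe was at 0.25 in Dll1-3 and 0.02 in Dll1-5. The mirror pattern was found for 11 genes. Of these, Itpr3 is on the list of connexin partners and regulators used here: it encodes an IP3 receptor, the calcium release channel behind calcium waves that pass through gap junctions. Its ratio was -1.13 ± 0.04 in Dll1-3 but 1.28 ± 0.01 in Dll1-5.

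The genes beside Gjc1 on chromosome 11 did not share its Dll1-5 value. Within 500 kb on either side in the array files' coordinates, a window chosen after the values were seen, 36 genes had a kept probe. Their median was 0.06 in Dll1-3 and 0.03 in Dll1-5, and their lowest Dll1-5 value was -1.91, for Fam171a2. Line means of opposite sign were found for 8 of the 36, from Adam11, at -0.09 in Dll1-3 and 0.01 in Dll1-5, to Map3k14, at -0.57 and 0.27. This count takes in means close to 0, and its share over all genes was not taken. The 10% of genes given above rests on a stricter rule, 1 sign on both arrays of each line, so nothing is read from the count. Gfap, the astrocyte filament gene, is one of these neighbours and was at -0.84 in Dll1-3 and -0.23 in Dll1-5.

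**Figure D4:**
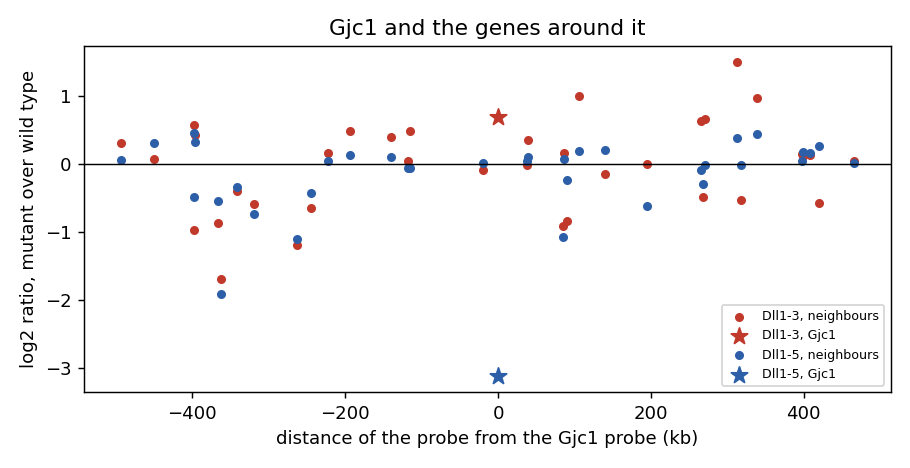
Mean log2 ratio over wild type (y axis) of Gjc1 (stars) and of 36 genes with probes within 500 kb of it (points), by distance from the Gjc1 probe in kb (x axis), in Dll1-3 (red) and Dll1-5 (blue). In Dll1-5 no neighbour lies below -1.91, where Gjc1 is at -3.13.

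The beta connexins were dim, and their ratios lay between -0.60 and 0.59 on all 4 arrays, but those of Gjb2 and Gjb6 depended on the processing. Gjb1 encodes connexin-32, known from oligodendrocytes, Schwann cells and hepatocytes. It was at 0.12 and -0.04 on the Dll1-3 arrays and at 0.38 and 0.04 on the Dll1-5 arrays. Its levels in Dll1-3 RNA (6.82 and 7.0) and in Dll1-5 RNA (6.95 and 6.88) lay within the wild-type range of 6.57 to 7.04. All 8 channels were above background. Gjb1 is on the X chromosome, with its probe from 95985860 to 95985919. Of the sex-linked genes checked, the Y-linked Eif2s3y, Ddx3y and Kdm5d were lower on all 4 arrays, with means over the lines of -4.87, -2.56 and -1.03, and Uty and Xist lay at 0.05 and -0.04. Other probes of Uty were at 0.01 and -1.40, and those of Xist at 0.09 and 0.02. The part of sex in these ratios was not tested.

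Gjb6 encodes connexin-30, the other connexin of astrocytes, and Gjb2 encodes connexin-26, known from the cochlea, liver and meninges. The genes are neighbours on chromosome 14, their kept probes lying 25.4 kb apart, from 51655465 to 51655524 for Gjb6 and from 51630077 to 51630136 for Gjb2. Gjb6 was at 0.29 and 0.22 in Dll1-3 and at 0.59 and 0.03 in Dll1-5. Mutant RNA was above background on all 4 arrays, and wild-type RNA on 1 of 2 arrays beside each line. Its levels in Dll1-3 (6.55 and 7.17) and in Dll1-5 (6.44 and 6.69) overlapped those of wild type, 5.85 to 6.94. With a background offset of 10 in place of 50, Gjb6 was at 0.46 in Dll1-3 and 0.76 in Dll1-5. The scanner software's ratios, which differ in background and normalisation alike, put it at 0.97 in Dll1-3 and 2.08 in Dll1-5. The other Gjb6 probe was not well above background in any channel.

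Gjb2 was not well above background in Dll1-3 RNA, so its ratio there is uncertain. It was at -0.60 and -0.23 on the Dll1-3 arrays, a mean of -0.41 ± 0.19, or 1.33-fold lower than wild type. The measured means were 6.17 in Dll1-3 and 6.58 in wild-type RNA of the same arrays. A bound was also taken, from the lowest signal that counted as well above background on each array, or the dim probe's own signal where higher. It came to the same 1.33-fold, so it sets no lower limit to the difference. Without background subtraction the Dll1-3 ratio was -0.34. In Dll1-5, where both channels were above background, Gjb2 was at -0.54 and -0.08. Those arrays had levels of 6.44 and 7.14 in Dll1-5 RNA against 6.98 and 7.21 in wild-type RNA, so the groups overlapped. With an offset of 10 Gjb2 was at -0.84 in Dll1-3 and -0.50 in Dll1-5. The scanner software's ratios put it at -2.04 in Dll1-3 and -0.72 in Dll1-5. Its other probe, well above background in 1 of 8 channels, was filtered out.

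Over the set, at least 2-fold lower on both arrays of a line were Gja1 and Panx1 in Dll1-3 and Gja1, Gjc1 and Panx1 in Dll1-5. No member was at least 2-fold higher on both arrays, where 4.46% of genes were in Dll1-3 and 3.01% in Dll1-5. Gja1, Gjb2 and Panx1 were below 0 on all 4 arrays, as were 26% of genes. The counts are few and come from the contrast that the choice used, so they are not read against these shares. Without loess, arrays of a line split by dye, and under median centring Panx1 alone kept its 2-fold call in Dll1-3 and Gjc1 alone in Dll1-5.

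Of the other connexins and pannexins, 11 of 16 genes on the list had a kept probe. The adjusted threshold was passed by 0 of them (limma). Gjc3, which encodes connexin-29 of oligodendrocytes and Schwann cells, stood apart in size, at -3.06 and -2.91 on the Dll1-3 arrays and at -2.90 and -2.79 on the Dll1-5 arrays. Over the lines it averaged -2.91 with an SD of 0.10 (n = 2). Its limma adjusted p of 0.0755 was the lowest that any gene had, a value shared with other genes such as Ctnnb1 and Lrrc8a. Gja5, which encodes connexin-40 of the endothelium and the cardiac conduction system, was at -0.51 (SD 0.10; limma adjusted p = 0.103), lower on all 4 arrays, with other probes at -0.11 and -0.13. Gja10 and Gja6 were at 0.23 and 0.13. The gene now called Gjd3, which the array files list under the name Gjc1, was at 0.09, and it is not to be taken for the Gjc1 described above. The list's median was 0.08, with 3 genes higher and 2 lower on all 4 arrays, beside a median of 0.01 over all genes, of which 24.1% were higher and 26% lower on all 4.

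Of 24 partners and regulators of connexins, 23 were measured and 0 passed the adjusted threshold (limma). The median was -0.12, with 3 higher and 9 lower on all 4 arrays, beside 24.1% and 26% of all genes. At an unadjusted p of 0.05 (limma), 1 was higher and 5 were lower, beside 2763 and 3582 of all 23106 genes. Csnk1d, a casein kinase that phosphorylates connexin-43, was at -1.19 (SD 0.35, n = 2; limma adjusted p = 0.0882), with other probes at -0.92, -0.12 and -0.02. Ctnnb1, beta-catenin, was at -0.99 (SD 0.03; limma adjusted p = 0.0755), with other probes at -0.60 and -0.98. Dbn1, the actin-binding protein drebrin that binds connexin-43, had -0.52 in Dll1-3 but -1.46 in Dll1-5. Itpr1, another IP3 receptor, had 1.61 in Dll1-3 but 0.20 in Dll1-5. The scaffold gene Tjp1, whose product ZO-1 binds the tail of connexin-43, was at 0.82 over the lines, with its other probe at 0.11.

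Purinergic genes, receptors for ATP and adenosine and the enzymes that break extracellular ATP down, had 16 of 22 members measured, with 3 higher and 10 lower on all 4 arrays. Over all genes these shares were 24.1% higher and 26% lower. The median was -0.27, and 0 passed the adjusted threshold, while 1 above and 7 below wild type had an unadjusted p under 0.05 (limma). Of all 23106 genes, 2763 above and 3582 below wild type had such a p. P2rx7, the ATP-gated channel often studied with Panx1, was at -0.65 ± 0.03 in Dll1-3 and -0.64 ± 0.05 in Dll1-5 (limma adjusted p = 0.0789). Nt5e, the ectonucleotidase CD73, was at -0.77 over the lines, with its other probe at 0.01, Entpd2, an ecto-ATPase, at -0.69, and P2rx6 at -0.75, all with adjusted p between 0.0765 and 0.0789 (limma). Among other large-pore channels, 5 of 8 genes were measured and 0 passed. Lrrc8a, the obligatory subunit of the volume-regulated anion channel and a relative of the pannexins, was at -0.93 in both lines (limma adjusted p = 0.0755). Its partners Lrrc8b, Lrrc8c, Lrrc8d and Lrrc8e were at 0.80, 0.50, 0.18 and -0.07. Other probes of Lrrc8b and Lrrc8e were at 0.24 and 0.02.

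**Figure D5:**
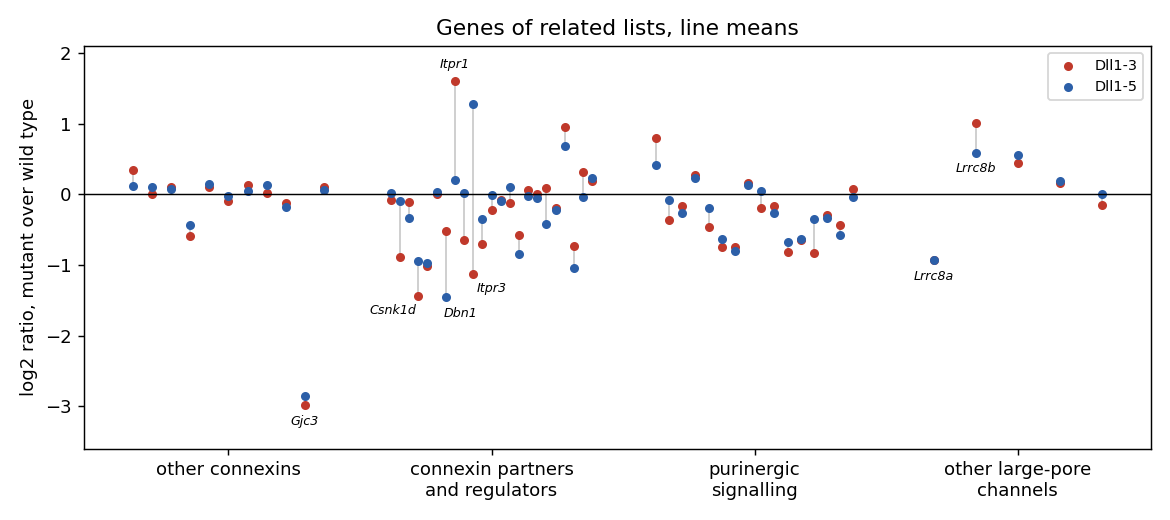
Mean log2 ratio over wild type (y axis) in Dll1-3 (red) and Dll1-5 (blue) for each measured gene of 4 related lists (x axis), with a line joining the values of a gene. Gjc3 lies near -3 in both lines, and Itpr1 is highest in Dll1-3 and Itpr3 in Dll1-5. Lower on all 4 arrays were 10 of 16 purinergic genes, beside 26% of all genes.

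Among tight and adherens junction genes, 22 of 23 were measured and 0 passed (limma), with a median of 0.03. On all 4 arrays 6 were higher and 5 lower, beside 24.1% and 26% of all genes. An unadjusted p under 0.05 (limma) was reached by 4 higher and 4 lower genes, beside 2763 and 3582 of all 23106 genes. Ctnna2, the neural alpha-catenin, was at -2.84 (SD 0.32, n = 2; limma adjusted p = 0.0755), with other probes at -0.46 and -1.83. Cldn12, a claudin, was at 1.29 and Tjp3, another ZO scaffold, at 0.99, with adjusted p of 0.134 and 0.114 (limma).

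Markers of cell types that use these connexins were examined beside them. Of 13 astrocyte markers, 11 were lower and 1 higher on all 4 arrays, with a median of -1.23. Over all genes 26% were lower and 24.1% higher on all 4. Apoe, a lipoprotein gene, was at -3.75, the bicarbonate transporter Slc4a4 at -3.41, the transcription factor Sox9 at -2.34 and the glutamate transporter Slc1a3 at -1.69. The list's summed level lay between 23456 and 26879 in Dll1-3 and between 28768 and 31963 in Dll1-5, against 104443 to 128966 in wild type, on a linear intensity scale. Bright probes weigh most in such a sum. Other probes of Slc4a4 were at -0.79 and -0.56, of Sox9 at -0.32 and -2.40, and of Slc1a3 at -0.90 and -0.71. The part of the astrocyte markers in the Gja1 ratio was not tested, and in a bulk culture fewer cells of a type cannot be told apart from less RNA per cell. Of 12 oligodendrocyte lineage markers, 5 were lower and 1 higher on all 4 arrays. Gpr17 and Cnp were at -4.08 and -2.0 and Cspg4 at 2.59, beside which Gjc3 was low and Gjb1 was not. The other probe of Gpr17 was at 0.02, and those of Cspg4 were at 0.25 and 1.42. The summed level of the 12 markers was 20672 to 21125 in Dll1-3 and 36058 to 38306 in Dll1-5, against 44715 to 47747 in wild type, and their part in these ratios was not tested. In this sum too bright probes weigh most, and the median log2 ratio of the markers was -0.50 in Dll1-3 and -0.03 in Dll1-5.

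The culture's own markers were present. All 12 neural stem cell markers were measured, 8 of them lower and 2 higher on all 4 arrays, with Hes5 at -4.83, Pax6 at -2.57, Sox2 at -1.46 (other probe -0.02) and Nes at -0.71. Pax6 was not well above background in Dll1-5 RNA, and its other probes were at -0.60 and 0.18. Of 9 neuron markers 5 were lower and 2 higher, with Map2, Dcx, Elavl3 and Syt1 at -1.99, -1.74 (other probe -0.01), -1.64 and -1.11. Beside both lists, 26% of all genes were lower and 24.1% higher on all 4 arrays. Other probes of Map2 were at -1.43, -0.88 and -0.23, and of Syt1 at -0.81 and -0.27. Microglia and blood markers (7 measured) and endothelial and mural markers (7 measured) had medians of 0.05 and 0.03. Of these, P2ry12 was at -0.32 and not well above background in mutant RNA, Csf1r and Cd68 were both at 0.07, and Acta2, Kdr and Rgs5 were at -0.82, -0.33 and 0.05. Other probes of Acta2 were at -0.12, 0.10 and 0. No gene of these marker lists passed the adjusted threshold (limma).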

How the data were processed

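The deposited scan files give Cy3 and Cy5 intensity for every spot and were written by Agilent Feature Extraction 8.1.1.1, as the submitters' processing notes also say. Per the file headers they hold the software's corrected red over green ratio too, as log10. A further table of processed values deposited by the authors was found to be log10 of wild type over mutant, its r with mutant over wild type being -0.962 to -0.954 on the arrays. Its column medians were -0.03, 0.01, -0.02 and 0.01, and how it was centred stays unknown. It served as an alternative only.

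Mean signals were background-corrected with normexp (offset 50) and normalised by loess within arrays (span 0.3) in limma 3.58.1 and R 4.3.3, with control and outlier spots at weight 0 and then left out. Dyes were read from the labels, and the log2 ratios made here from the deposited intensity all run mutant over wild type. Channel levels were taken after a further Aquantile step. A probe was kept if, in at least 1 line, the mutant or the wild-type signal passed the software's well-above-background call on both arrays, and a gene was represented by its brightest kept probe. Names came from RefSeq (GRCm38.p6) for 13749 genes by accession, 2476 by symbol and 1361 by synonym, and 5521 kept the file's name.

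Arrays were averaged within a line, and lmFit and eBayes tested the 2 line means against 0. There was 1 residual degree of freedom, the prior was worth 1.64, and p-values were adjusted over all genes by Benjamini-Hochberg. P-values rest on the spread between the 2 line means and on the prior. They leave out the spread between the arrays of a line and that between wild-type pools. The number of arrays limits the precision, and each array was scanned on a slide of its own. The members, lists and tests were chosen with earlier results of these data known. Named were all members, up to 4 genes of a list by size among those of 1 sign on all 4 arrays, and the 5 genes nearest to Gjc1. Other genes are named with the reason beside them. Alternatives covered background, normalisation, filters, probes, left-out arrays and the fold threshold. Some genes of the lists are counted but not reported here by name.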

Additional observations from a re-analysis of the deposited data

Results flagged for a closer look

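Gjc1 differed between the lines by -3.82 (log2, Dll1-5 minus Dll1-3), both Dll1-5 arrays being below 0 and both Dll1-3 arrays above it. The difference was not tested, and the gene was chosen for it.

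In the 4 wild-type channels, the dimmer Panx1 probe had a level of 7.17 on Dll1-3 array 1 and of 6.70 to 6.74 on the other arrays, a gap that Dixon's test sets apart. Of 8 probes examined in this way, about 1 in 20 would be set apart by chance.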

How the results depend on the processing

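The 6 measured members gave 12 ratios, recomputed under up to 11 settings each, 130 values in all. Of these, 99 moved by no more than the SD of the 2 arrays and 31 by more. Leaving out 1 of 2 arrays moves a mean by less than that SD whatever the data, so those values were bound to be among the 99. The dim-probe filter settings left every ratio they gave unchanged, so the 99 is no measure of stability. With the scanner ratios or the deposited table, 9 of 13 results moved by more, the Gjc1 difference between lines included. None of the ratios that were at least 2-fold changed sign. The distance between the lines for Gjc1, -3.82, was -3.65 without background subtraction, -4.53 with a normexp offset of 10, -5.06 with the scanner software's ratios, -5.07 with the deposited table, -4.08 with median centring and -3.48 with the mean of its probes. Left-out arrays gave -3.91 to -3.73. Members at least 2-fold on both arrays numbered 2 in Dll1-3, or 1 without background subtraction or with median centring, and 3 with the scanner ratios, the deposited table (Gjb2 added in both) or a 1.5-fold threshold. In Dll1-5 they numbered 3, or 1 with median centring and 2 with the mean of probes. Over all genes, 1404 lower and 1026 higher in Dll1-3 and 848 lower and 693 higher in Dll1-5 became 2283, 1617, 1570 and 1318 with the scanner ratios, 2239, 1584, 1542 and 1278 with the deposited table, 611, 468, 384 and 297 with median centring, and 2748, 2319, 1974 and 1822 at 1.5-fold. The cause was not tested.

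Of the list genes and of all genes, 0 passed the adjusted threshold, and 18 and 922 did with an offset of 10, 13 and 336 with the scanner ratios. With an array left out, list genes past it ran from 0 to 27 and all genes from 0 to 1678: without Dll1-3 replicate 1 they were 25 and 1678, and without Dll1-5 replicate 2 they were 27 and 1645. With the 4 arrays as separate samples 66 and 7728 passed, or 59 and 6683 under a replicate block and 58 and 6613 where the line was a random effect. The replicate number is the dye orientation, so the block is a dye term. Deviations of same-numbered arrays from their line means correlated at 0.701, and with 2 numbers this is no evidence of shared samples. Gjb2, Gjb6 and the dimmer Panx1 probe are limited by signal over background.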
